A study of Mus musculus with 2 samples.

Results

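The conjugating enzymes and carboxylesterases were taken as every mouse gene whose symbol begins with Ugt1, Ugt2, Ugt3, Gsta, Gstm, Gstp, Gstt, Gsto, Gstk, Sult or Ces and a digit. The RefSeq gene table lists 85 such genes, and 71 of them were matched to a probe by accession, out of 20658 genes with a symbol and a probe on the array. They were 17 of 20 carboxylesterases, 14 of 21 UDP-glucuronosyltransferases, 20 of 22 glutathione S-transferases and 20 of 22 sulfotransferases. The members with no matched probe were Ces1h, Ces2d-ps, Ces2h, Gsta1, Gstm2-ps1, Sult2a-ps2, Sult2a5, Ugt1a1, Ugt1a2, Ugt1a5, Ugt1a7c, Ugt1a8, Ugt1a9 and Ugt2a2, and they were not analysed here.

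Messenger RNA of the prefrontal cortex (PFC) was measured with 1 one-color Agilent array for control mice (C) and 1 for mice under chronic mild stress (CMS), to ask which genes differ between these conditions. Both groups were male mice of the C57Bl/6 N sea strain, 9 to 10 weeks old at the start, and the stress lasted 4 weeks. C mice were housed in groups and CMS mice individually, so housing and stress cannot be told apart. Each array was hybridized with RNA pooled from several mice, 7 per pool in the design text and 10 per group in the methods. With 1 array per group there was no spread between mice, no test and no p value, and all statements below compare these 2 pools.

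These enzymes take part in foreign-compound and hormone metabolism. UDP-glucuronosyltransferases attach a sugar acid, sulfotransferases a sulfonate group and glutathione S-transferases the tripeptide glutathione, which makes the product more soluble, and carboxylesterases split esters and amides, including drugs and stored lipids. Liver and intestine are the tissues best known for the Ces1, Ces2, Ugt2b and Sult2a enzymes, and brain is known for Sult4a1 and for mu- and pi-class glutathione S-transferases.

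Signals are in array units, with the mean of either array set to 2500. A probe that the scanner software did not mark as well above background kept its signal only down to a floor, the lowest signal of a probe so marked (17.8 in C, 17.6 in CMS), and its ratio is then a bound, written as "at least". A gene was called higher above a 2-fold ratio of CMS over C and lower below 0.5. Spots of the same probe differed in log2 ratio with an SD of 0.13 over 342 probes, and the error that the scanner software gives for its own signals came to between 0.06 and 0.35 for the log2 ratio of a member (median 0.21). Neither of these errors includes differences between mice. No spot was saturated, 65.2% of spots were well above background in C and 65.9% in CMS, and Gapdh had a log2 ratio of 0.04.

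In the CMS pool 24 of the 71 members were more than 2-fold higher than in the C pool, which is 33.8% beside 1.77% of all genes with a symbol and a probe. No member was below 0.5, beside 0.339% of those genes (365 higher and 70 lower in all, or 304 and 122 without scaling of the arrays). The higher members were 11 carboxylesterases, 10 UDP-glucuronosyltransferases, 2 glutathione S-transferases and 1 sulfotransferase. Of the 71 members, 37 were well above background on both arrays, 14 on the CMS array only, none on the C array only and 20 on neither. A filter on the C array alone does not use the CMS signal, though a gene's probe was chosen by its signal on both. Of the 37 members that passed this filter 17 were higher (45.9%) and none lower. The shares were 1.52% and 0.442% of the 15842 genes well above background in C. The median log2 ratio was 0.63 over the 51 members with a ratio, bounds included, and 0.28 over the 37, beside -0.04 over all 16267 genes with a ratio.

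**Figure D1:**
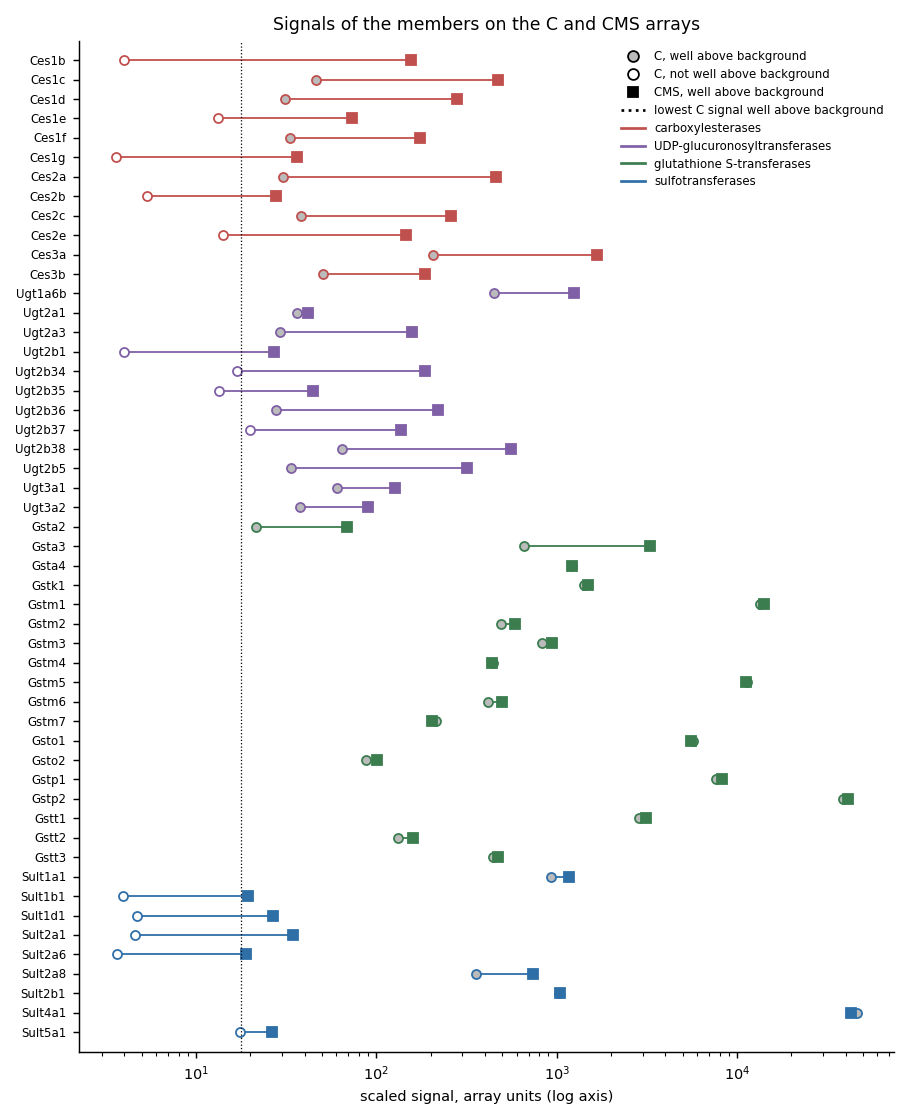
Scaled signals of the 51 members well above background on at least 1 array, on a log axis in array units, with 1 circle for the C pool and 1 square for the CMS pool, colored by enzyme group. Carboxylesterases and most UDP-glucuronosyltransferases have squares far to the right of their circles, while most glutathione S-transferases and the signals of Sult4a1 (46513 in C, 43098 in CMS) nearly coincide.

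The sequences before the transcription starts are shown for members of the Ugt2b family. This family was chosen because its genes are neighbours on the chromosome, most were higher in CMS, and 4 of them share a run of bases there. RefSeq promoter entries (build GRCm38.p6) matched 59 of the 71 members, and the 250 bases before each start were searched on both strands. Capitals mark AGGTCA, the hexamer that nuclear receptors bind, read on either strand. Each line holds 120 bases, 5′ to 3′.
Ugt2b5 (chr5:87140341-87140460, minus strand): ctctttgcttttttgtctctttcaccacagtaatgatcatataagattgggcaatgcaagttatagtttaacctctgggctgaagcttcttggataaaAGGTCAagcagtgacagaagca
Ugt2b36 (chr5:87092556-87092675, minus strand): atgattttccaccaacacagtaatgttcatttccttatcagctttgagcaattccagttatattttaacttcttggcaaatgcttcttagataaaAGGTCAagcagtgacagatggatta
Ugt2b37 (chr5:87254789-87254908, minus strand): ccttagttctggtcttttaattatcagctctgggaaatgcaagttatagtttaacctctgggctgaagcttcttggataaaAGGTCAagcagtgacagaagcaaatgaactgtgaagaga
Ugt2b38 (chr5:87424204-87424323, minus strand): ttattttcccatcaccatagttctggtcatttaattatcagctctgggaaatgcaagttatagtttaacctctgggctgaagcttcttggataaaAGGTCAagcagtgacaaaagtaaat
Ugt2b35 (chr5:87000610-87000729, plus strand): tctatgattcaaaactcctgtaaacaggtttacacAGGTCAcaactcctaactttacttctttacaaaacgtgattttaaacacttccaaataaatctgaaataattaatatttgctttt

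The hexamer begins 22 bases before the annotated start in Ugt2b5, 25 in Ugt2b36 and Ugt2b38, and 39 in Ugt2b37. In these 4 genes it lies within a shared run of 22 bases, gataaaAGGTCAagcagtgaca, which among all 32851 promoter entries was found in these 4 genes only. In Ugt2b35 the hexamer lies 215 bases before the start, in other surroundings. The remaining Ugt2b genes, Ugt2b1 and Ugt2b34, have no AGGTCA in these 250 bases. The 22 bases were picked as the longest run common to Ugt2b5, Ugt2b36, Ugt2b37 and Ugt2b38. Their absence from other genes is thus no separate finding. The Ugt2b genes are tandem relatives, so their promoters are not independent of each other.

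Across the members, a gene counted as holding AGGTCA if any of its entries did. The hexamer was present before 7 of 19 higher genes with an entry, 1 of 17 genes within 2-fold on both arrays and 3 of 23 others. Counted by single entries, 14.0% of all entries held AGGTCA. The other higher genes that hold it are Ces2a and Sult2a8, and the one within 2-fold is Gstk1. Ces2a, which had the highest measured ratio of the members, is shown as an example, and its hexamer lies 226 bases before the start. All sequences shown hold the hexamer, and those of higher genes without it are not shown.
Ces2a (chr8:104733753-104733872, plus strand): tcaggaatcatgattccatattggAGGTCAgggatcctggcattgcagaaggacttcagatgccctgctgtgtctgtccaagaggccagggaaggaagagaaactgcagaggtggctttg

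The HNF4-selective sequence CAAAGTCCA was found before none of the 59 members and in 0.384% of all entries. The antioxidant response element core TGACNNNGC was found before Gsta3 among the higher genes and before Gstm5 and Gstm7 among those within 2-fold, and in 10.2% of entries. TATAAA was found before 5, 3 and 4 genes of these classes and in 12.4% of entries. These are matches of letters, not sites of binding.

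Carboxylesterases had the most members called. Of the 17 with a probe, 11 were more than 2-fold higher in CMS, 4 of them as bounds, and the 7 that were well above background in both pools all rose between 3.70-fold and 15.3-fold. Ces1 enzymes are lipid and drug esterases, and the mouse forms include a secreted plasma esterase, Ces1c, and the triacylglycerol hydrolase of liver and fat, Ces1d. Ces1c had a signal of 46.5 in C and 475 in CMS, 10.2-fold higher (log2 ratio 3.35, scanner error 0.23). Ces1d had 31.2 and 279, 8.94-fold higher, and Ces1f had 33.1 and 176, 5.31-fold higher. These genes thus had a weak but measured signal in the control pool and a clear one in CMS.

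Ces1b, Ces1e and Ces1g were not well above background in C. The Ces1b signal was 4.0 in C and 155 in CMS, which is at least 8.70-fold higher. Ces1e was at 13.2 and 73.0 (at least 4.10-fold), and Ces1g, which is known from lipid handling in the liver, at 3.59 and 36.5 (at least 2.05-fold). Ces1a was well above background on neither array (9.88 and 10.8) and is the only measured Ces1 gene with no ratio. The 8 Ces1 genes and Ces5a lie next to each other in the RefSeq gene order, and 6 of the 8 with a probe in that run were called.

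Ces2a, a liver and intestine esterase, had a signal of 30.2 in C and 462 in CMS, 15.3-fold higher (log2 ratio 3.93, scanner error 0.31). Ces2c had 38.3 and 258, 6.74-fold higher on its brightest probe. A further Ces2c probe was at 7.75 and 43.3, at least 2.43-fold higher, and the last was well above background on neither array. Ces2e was at 14.1 and 146, at least 8.20-fold higher, and its other probe was well above background on neither array. Ces2b was seen in CMS only (5.33 and 27.6), with a bound of 1.55-fold that stays under the threshold. Ces2f and Ces2g were well above background on neither array.

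Ces3a was at 206 in C and 1682 in CMS, 8.17-fold higher. Ces3b was at 50.3 and 186, 3.70-fold higher. Ces4a and Ces5a were well above background on neither array. Ces2, Ces3 and Ces4 genes form 1 run of 10 neighbours, of which 9 have a probe and 5 were called: Ces2a, Ces2c, Ces2e, Ces3a and Ces3b. The sequences of the probes were not analysed here, and the paralogs are close, so how far 1 transcript feeds the probe of its neighbour is not known. This holds for the Ugt2b, Gstm, Gstp and Sult2a clusters too.

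**Figure D2:**
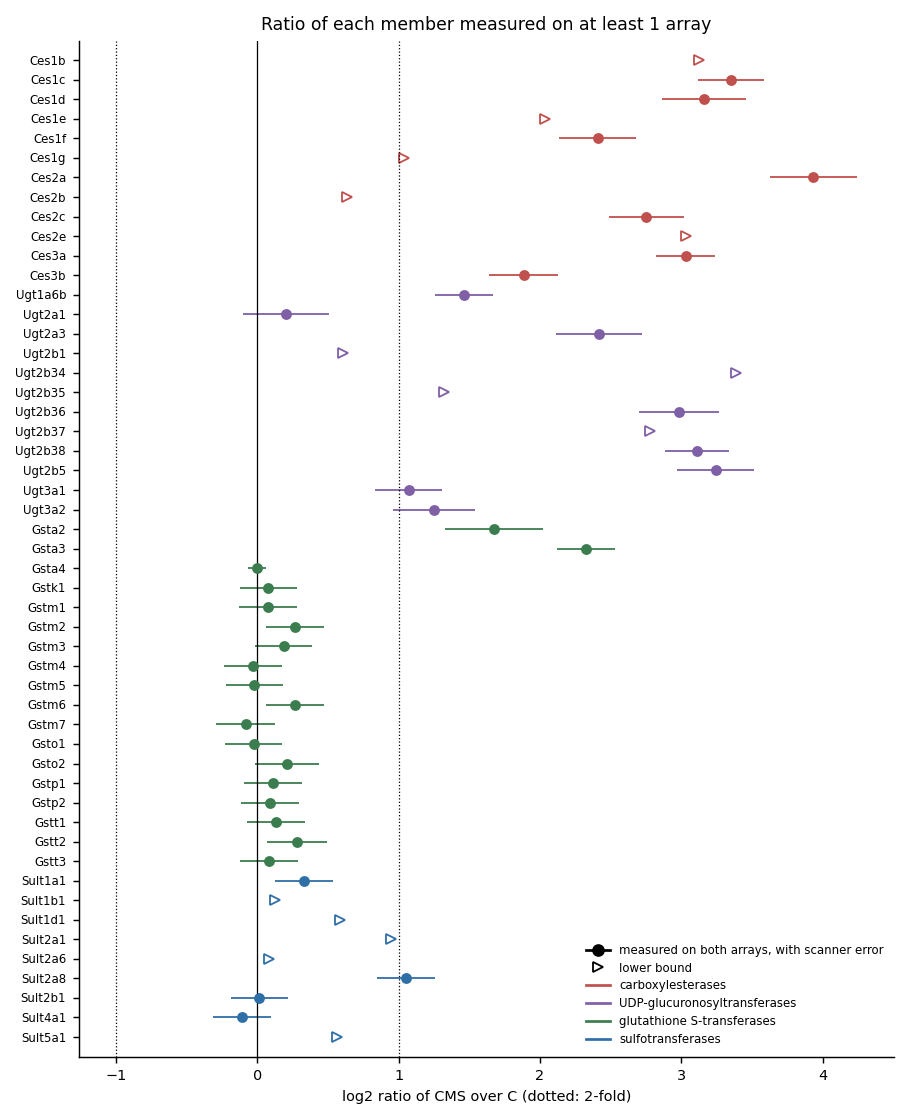
Log2 ratio of CMS over C for the 51 members with a ratio, where circles with bars are ratios measured on both arrays with the scanner software's error and open triangles are lower bounds. Every carboxylesterase except Ces2b lies beyond the dotted 2-fold line, and the 18 glutathione S-transferases lie near 0 apart from Gsta2 and Gsta3.

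Among the 14 UDP-glucuronosyltransferases with a probe, 10 were more than 2-fold higher in CMS, 3 of them as bounds. Of the Ugt2b enzymes, which glucuronidate steroids, bile acids and drugs, 6 of 7 were called. Ugt2b5 had a signal of 33.6 in C and 318 in CMS, 9.47-fold higher (log2 ratio 3.24, scanner error 0.27). Ugt2b38 had 64.5 and 557, 8.64-fold higher, and Ugt2b36 had 27.7 and 219, 7.91-fold higher. These are 3 of the 4 genes that share the 22 bases shown above.

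The fourth, Ugt2b37, was not well above background in C (19.8) and had 136 in CMS, at least 6.87-fold higher. Ugt2b34 was at 16.8 and 186, at least 10.5-fold higher, with no hexamer in the searched bases. Ugt2b35 was at 13.4 and 44.5, at least 2.50-fold higher, and its other probe was well above background on neither array. Ugt2b1 was seen in CMS only (3.99 and 27.0), with a bound of 1.52-fold. The 3 ratios measured on both arrays were 2.98 to 3.24 on the log2 scale, with scanner errors of about 0.23 to 0.28. Whether they differ from each other was not tested.

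The Ugt2a genes differed from each other. Ugt2a3 was at 29.3 in C and 157 in CMS, 5.34-fold higher. Ugt2a1, known as the olfactory form, was at 36.2 and 41.6, a log2 ratio of 0.20 with a scanner error of 0.30. Ugt2a3 lies within the row of Ugt2b genes, between Ugt2b37 and Ugt2b38. In the run of 13 neighbours that holds Ugt2b, Ugt2a and Sult1b1, Sult1d1 and Sult1e1, 12 have a probe and 7 were called, all of them Ugt2b genes or Ugt2a3.

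Ugt1a6b, a phenol-conjugating form, was at 450 in C and 1241 in CMS, 2.76-fold higher, and its other probe was well above background on neither array. Ugt1a6a and Ugt1a10 were also at background. Ugt1a transcripts share their 3′ exons and differ in the first, so a probe in the shared part would read all of them, and 6 of the 9 Ugt1a genes had no matched probe. Ugt3a1 and Ugt3a2, neighbours that use sugars other than glucuronic acid, were at 60.2 and 126 (2.10-fold) and at 37.6 and 89.5 (2.38-fold). Another Ugt3a2 probe was well above background on neither array.

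Glutathione S-transferases gave a different picture on the same arrays. All but Gstp3 and Gstt4 of the 20 with a probe were well above background in both pools, and only Gsta2 and Gsta3 were called. Gsta3, the alpha-class enzyme that detoxifies aflatoxin in mouse liver, had a signal of 655 in C and 3284 in CMS, 5.01-fold higher (log2 ratio 2.33, scanner error 0.20). Its other probe was at 172 and 1045, 6.09-fold higher. Gsta2 was at 21.6 and 68.9, 3.20-fold higher, with a scanner error of 0.35 on a log2 ratio of 1.68.

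Gsta4, which removes aldehydes from lipid peroxidation, is in the same class and had nearly equal signals, 1218 in C and 1217 in CMS. Its probe has 10 spots on each array, and their log2 ratios had a mean of -0.00 with an SD of 0.08. The 7 measured mu-class genes (Gstm1 to Gstm7) lay between -0.08 and 0.27. Gstm1 was at 13353 and 14090 and Gstm5 at 11416 and 11257, ratios of 1.06 and 0.986. A multi-spot Gstm7 probe, with 8 spots left after outliers were removed, gave a mean log2 ratio of 0.05 with an SD of 0.07.

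Gstm3 is the mu-class gene whose probes disagreed. The brightest was at 824 in C and 937 in CMS (log2 ratio 0.19), and the other was at 6.10 and 82.1, at least 4.61-fold higher. Which part of the transcript or of its relatives each probe reads was not analysed here. The third probes of Gstm2 and Gstm6, both dimmer, had log2 ratios of 0.44 and 0.47, above those of their brightest probes (0.27 for each).

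Gstp1 and Gstp2, the pi-class genes, were at 7623 and 8226 and at 38610 and 41105, log2 ratios of 0.11 and 0.09. Gstt1, Gstt2 and Gstt3 had 0.13, 0.28 and 0.09. The mitochondrial and peroxisomal Gstk1 had 0.08, and Gsto1 and Gsto2, which reduce dehydroascorbate, had -0.03 and 0.21. Over all 20 members within 2-fold on both arrays the lowest log2 ratio was -0.11, the median 0.09 and the highest 0.33, 16 of them within their scanner error of 0. Without scaling of the arrays the family medians of Gstk, Gstm, Gsto, Gstp and Gstt turn to between -0.10 and -0.04, so no direction is given for them.

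**Figure D3:**
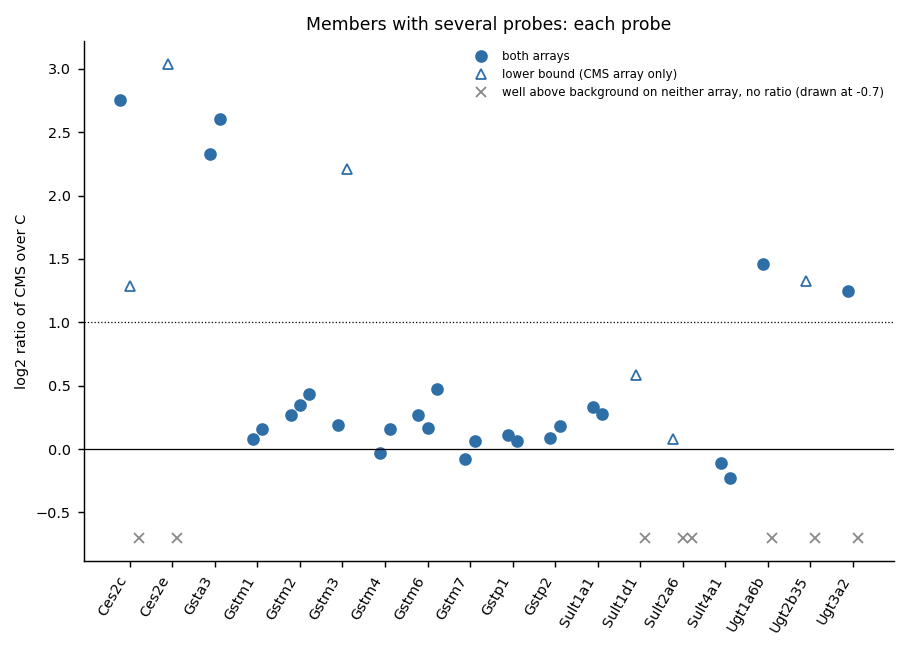
Log2 ratio of CMS over C for each probe of the 18 members with several probes and at least 1 ratio, with circles for probes measured in both pools, open triangles for lower bounds and crosses for probes with no ratio. The Gsta3 probes lie close together at 2.33 and 2.61, and the Gstm3 probes lie apart at 0.19 and a bound of 2.21.

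Sulfotransferases were mostly at background. Of the 20 with a probe, 11 were well above background on neither array, among them the estrogen sulfotransferase Sult1e1, Sult1c1, Sult1c2, both Sult3a genes, both Sult6b genes and 4 of the Sult2a genes. The only one called was Sult2a8, a bile acid sulfotransferase of liver, at 357 in C and 742 in CMS, 2.08-fold higher (log2 ratio 1.05, scanner error 0.21). The error reaches below the threshold.

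Another 5 sulfotransferases were well above background in CMS only, each with a bound under 2-fold. Sult2a1, which acts on hydroxysteroids and bile acids, was at 4.60 and 34.2 (at least 1.92-fold). Sult1d1, which acts on catecholamines in the mouse, was at 4.72 and 26.7 (at least 1.50-fold). Sult5a1 was at 17.5 and 26.3 (at least 1.48-fold), Sult1b1 at 3.92 and 19.4 (at least 1.09-fold) and Sult2a6 at 3.62 and 18.8 (at least 1.06-fold), and both other Sult2a6 probes were at background.

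Of the 4 sulfotransferases well above background in C, the others besides Sult2a8 were within 2-fold. Sult4a1, the neuronal member with no settled substrate, was at 46513 and 43098 (log2 ratio -0.11), and its other probe gave -0.23. Sult2b1, which sulfonates cholesterol and related steroids, was at 1033 and 1044 (log2 ratio 0.02). Sult1a1, the phenol form, was at 930 and 1169 (log2 ratio 0.33, scanner error 0.20), and its other probe gave 0.28. The calls measured on both arrays nearest the threshold were thus Sult2a8 (2.08-fold) and Ugt3a1 (2.10-fold). The nearest bounds were Ces1g (at least 2.05-fold) inside it and Sult2a1 (at least 1.92-fold) outside it, and their ratios have no upper limit.

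The cofactors and relatives of these enzymes were taken from lists of other genes of the same pathways, 74 of 75 with a probe. Of the 74, 13 were more than 2-fold higher and none lower, beside 1.77% and 0.339% of all genes with a symbol and a probe. At those shares a short list would mostly hold no call, so a list without calls says little by itself. None of the 4 genes of glucuronidation supply was called, among them Ugdh (log2 ratio 0.11), which makes the sugar donor. None of the 5 measured genes of sulfonate donor supply was called, among them Papss1 (-0.05) and Papss2 (0.05), which make the sulfonate donor. In glutathione synthesis and turnover 1 of 11 was called, Ggt6 (1.02), while Gclc (-0.07), Gclm (-0.17) and Gss (0.03), the synthesis enzymes, were not. Nrf2 targets outside the families, the genes of the antioxidant response, had 0 of 6 called, with Nqo1 at -0.20 and Hmox1 at -0.14.

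The remaining calls were in enzymes of related chemistry and in regulators. Mgst1, the microsomal glutathione transferase, was the 1 of 9 other transferases called, at 786 in C and 2784 in CMS (3.54-fold). Of 15 other conjugating enzymes 7 were called: the methyltransferases Nnmt (2.30-fold) and Inmt (2.64-fold), the glycine-conjugating Glyat (at least 3.08-fold) and its relative Keg1 (at least 2.09-fold), and the medium-chain acyl-CoA synthetases Acsm1 (3.79-fold), Acsm3 (at least 2.18-fold) and Acsm5 (at least 2.26-fold). Of 12 other hydrolases of esters and epoxides 2 were called, Aadac (80.6 and 740, 9.19-fold) and Pon1 (28.5 and 253, 8.85-fold), while Ache had a log2 ratio of -0.18.

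Of the 12 nuclear receptors and regulators of these enzymes 2 were called. Hnf4a, which drives many liver genes, was at 45.1 in C and 529 in CMS, 11.7-fold higher, and Nr1h4, the bile acid receptor, was at 23.5 and 77.7, at least 3.31-fold higher. The pregnane X receptor Nr1i2 was seen in CMS only (3.60 and 28.4, at least 1.60-fold). Nr1i3 (-0.18), Ahr (0.07), Ppara (-0.03) and Nfe2l2 (-0.16) were not called.

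Most of the 35 markers of hepatocytes were higher in CMS. Of the 35, 26 were more than 2-fold higher and none lower, beside 1.77% and 0.339% of all genes with a symbol and a probe. The markers had a median log2 ratio of 2.93 over the 32 with a ratio, beside 0.63 over the 51 members with a ratio. Albumin (Alb) was at 1509 in C and 17486 in CMS, 11.6-fold higher. The summed signal of the list was 539088 in C and 665531 in CMS, of which the probe of Slc10a1 alone gave 501222 and 534088, and without that gene the sums were 37866 and 131443. Exceptions were Nr1i3, Slc10a1 (0.09), Trf (0.69), Tat (0.74), Ass1 (0.90) and Nr1i2, and markers well above background on neither array included Cyp1a2 and Foxa2. The part of hepatocyte RNA in the members' ratios was not tested, nor was the source of that RNA. In pooled tissue more cells of a type and more RNA per cell cannot be told apart.

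Markers of other tissues that use these enzymes had at most 1 higher call per list, beside 1.77% of all genes with a symbol and a probe. The lists are short, so 0 or 1 call says little about a tissue. Choroid plexus markers had 1 of 11 called, Ttr (10.4-fold), which is also in the hepatocyte list, and their summed signals were 13824 and 18239. Kidney proximal tubule markers had 0 of 8 called, with sums of 1714 and 1509 and Kap and Lrp2 well above background on neither array. Intestinal markers had 1 of 7 higher, Fabp2 (2.86-fold), and 1 lower, Sis (0.440 times or less), with sums of 524 and 593 and Cdx1 and Cdx2 at background. Olfactory markers, which include the members Ugt2a1 and Sult1c1, had 1 of 7 called, Omp (2.04-fold), with sums of 23295 and 24596.

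Markers of the tissue itself were present in both pools and none was called: all 8 of neurons, all 8 of astrocytes and all 7 of oligodendrocytes were well above background, with median log2 ratios of -0.04, -0.02 and -0.15. Their summed signals were 228256 and 221971, 52205 and 52037, and 52613 and 47647. The 24 called members lay in 21 of 64 equal areas of the array, with at most 2 in any area.

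**Figure D4:**
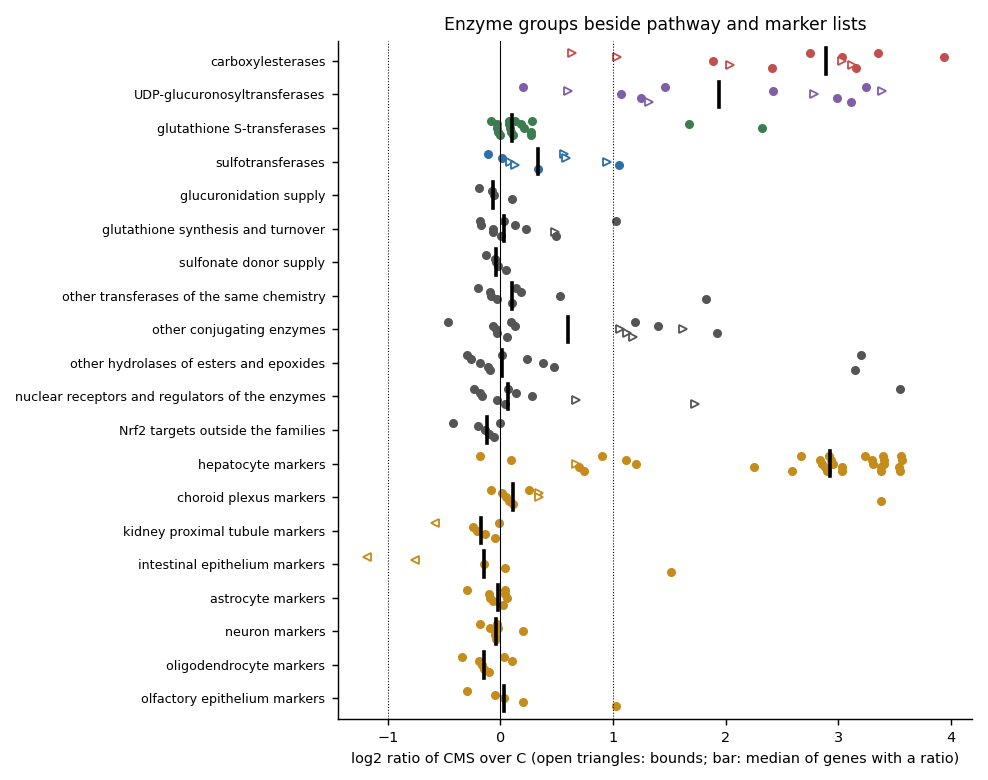
Log2 ratios of CMS over C for the 4 enzyme groups, the pathway lists and the marker lists, with 1 point per gene, open triangles for bounds and a black bar for the median of genes with a ratio. The medians of carboxylesterases (2.89) and UDP-glucuronosyltransferases (1.94) are the only ones beyond the dotted 2-fold line besides that of the hepatocyte markers (2.93).

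Processing changed the number called. No member was lower under any setting, but lower calls were rare among all genes too (0.339% in the main setting). With normexp background correction and quantile normalization 17 members were called instead of 24, without Ces1e, Ces1g, Gsta2, Sult2a8, Ugt2b35, Ugt3a1 and Ugt3a2, and without scaling 21, without Ces1g, Sult2a8 and Ugt3a1.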

How the data were processed

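Pooled PFC RNA of C and of CMS mice was hybridized to 2 one-color Agilent mouse arrays on 1 slide. Per the labels, signals were extracted with Agilent Feature Extraction 10.10.1.1. The authors deposited the processed signal intensity of each spot, background-subtracted and detrended on a linear scale, and a table of intensities that is the processed intensity times 1.80 (C) and 2.05 (CMS).

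Control spots and outlier spots (130 in C, 133 in CMS) were left out, spots of a probe were averaged, and arrays were scaled to a mean of 2500 (factors 0.853 and 0.963). To count as well above background, a probe needed that mark on a share of at least 0.5 of its spots. Dim probes were set to a bound as the report describes, and log2 ratios were taken. Accessions without versions were named through the RefSeq table of GRCm38.p6, which named 30740 of 59305 spots (55681 probes). The brightest probe by mean log2 signal stands for a gene. All members were accounted for, and members above background on at least 1 array could be named, as could changed or defining genes of the other lists. Members and lists were chosen with earlier results of these data known.

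With 1 array per group, no test, SD between mice or leave-one-out value could be made, and the number of arrays limits the precision. Calling was tested on simulated arrays. Alternatives were other scalings (75th percentile, median, mean after the lowest 2% and highest 2% were left out, none), quantile normalization with and without normexp (offset 50), the deposited table, other filters on dim probes, keeping outlier spots, averaging all probes of a gene, and only mRNA accessions. Normexp was run on median intensities. Python 3.11.15, numpy 2.4.6, pandas 2.3.3, scipy 1.17.1, R 4.3.3 and limma 3.58.1 were used. Results of some listed genes and of 1 searched motif are not reported here.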

Additional observations from a re-analysis of the deposited data

How the results depend on the processing

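No paired analysis was possible because each group has 1 array, and for the same reason no replicate could be left out. Under each of the 13 alternatives 0 members were lower, where lower calls were rare among all genes too (0.339% in the main setting). The number of members higher ranged from 17 to 36 beside 24. It was 17 where both arrays had to be above background, 17 with normexp, 30 with no bound for dim probes and 36 with no filter. All 24 stayed among the higher genes under 9 of them. The median log2 ratio of all members, 0.63, became 0.60 with median scaling, 0.77 with no scaling, 0.59 with quantile normalization, 0.35 with normexp and quantile normalization, 1.68 with no bound, 0.28 where both arrays had to be above background, 1.05 with no filter and 0.94 with the mean of all probes. The settings change which members have a value (71 with no filter, 49 with no scaling). With no bound the same number, 51, had a value, and only members dim on 1 array changed. For the other settings the cause was not tested. The Ugt1a median, 1.46 from Ugt1a6b alone, became -0.44 with no filter, which adds 2 genes at background. With the mean of all probes Gstm3 was also higher, its log2 ratio going from 0.19 to 1.20. No scaling shifted the median of all genes by -0.17. Of the values of single members 544 stayed within the spot SD, 103 moved beyond it and 0 changed sign among called genes. The floor of 17.8 units limits what can be seen in C: for the 14 members seen in CMS only, the ratio has a lower limit and no upper one.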
